A study of Mus musculus with 12 samples.

Results

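The MCM helicase and its loading and activating factors were examined as a group of 10 genes in neural stem cells (NSCs): the 6 subunit genes Mcm2, Mcm3, Mcm4, Mcm5, Mcm6 and Mcm7, the loading factors Cdc6 and Cdt1, the Cdt1 inhibitor geminin (Gmnn) and the helicase component Cdc45. They were chosen by gene symbol, and each symbol matched 1 of the 45792 genes listed. All 10 were among the 15706 genes with enough counts to be tested.

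Before a chromosome can be copied, its origins have to be licensed. In G1 phase the origin recognition complex, Cdc6 and Cdt1 load rings of Mcm2 to Mcm7 onto DNA in an inactive form. In S phase the kinase Cdc7 with Dbf4, Cdc45 and the GINS complex turn the rings into the moving helicase, and geminin binds Cdt1 so that origins are not licensed again. The genes are used by dividing cells and are turned off in cells that leave the cycle, and many of them are targets of E2F transcription factors.

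The libraries were made from NSCs of the forebrain of mouse pups 1-2 days old, at the second passage. WT NSCs (libraries 9 to 12) were C57BL/6J, and Ncf1-/- NSCs came from mice back-crossed to C57BL/6J that lack Ncf1, the p47phox subunit of NADPH oxidase, in all cells. Ncf1-/- NSCs were given vehicle (libraries 1 to 4) or recombinant Igfbp2 (libraries 5 to 8, 100 ng/ml per the labels) 48 h after plating, and RNA depleted of rRNA was collected 48 h later. Each group held 4 libraries. The methods describe a lower dose of Igfbp2 than the labels do. Pups were cultured separately, and the vehicle and Igfbp2 cultures are described as pairs from the same Ncf1-/- pups. The question was how loss of Ncf1 changes these cells and whether added Igfbp2 changes them back.

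Some features of the libraries bear on what follows. The total of estimated counts lay between 18201543 and 34086484 per library, and the deepest was WT library 11. Ncf1 itself was at 0.0478 to 0.223 CPM in all 12 libraries, so that its level does not check the genotype. The stem cell genes Nes, Sox2, Vim, Fabp7, Slc1a3 and Pax6 were present in every library, but the WT libraries also held much RNA of oligodendrocyte genes: 6 such genes summed to 8733, 8961, 1483 and 4945 CPM in WT libraries 9 to 12 and to between 192 and 281 CPM in the 8 Ncf1-/- libraries. The summed level of 4 Y-linked genes was 105 to 118 CPM in WT libraries 9 to 11 and the vehicle-treated Ncf1-/- libraries, and 6.46 to 9.18 CPM in WT library 12 and the Igfbp2-treated libraries. Xist, the X-inactivation transcript of female cells, was at 3.87 to 5.22 CPM in WT libraries 9 to 11, at 72.3 to 87.8 CPM with vehicle, at 166 to 275 CPM with Igfbp2 and at 291 CPM in WT library 12, so that the vehicle-treated libraries held both kinds of transcript. These values go against the pairing, and a difference between the treatments cannot be told apart from one in the sex makeup of the cultures. Against WT libraries 9 to 11, the vehicle-treated libraries differed in Xist and the Igfbp2-treated ones in both kinds of transcript. The part of sex makeup in the comparisons with WT was not tested. WT library 12 is also listed under another treatment in a supplementary sheet of the study, so that the calls of the 10 genes and the ends of the range of their fold changes are also given without it. Levels, shares and lengths are given with it.

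Sequences around the start of transcription (250 bases before and 50 after, RefSeq, GRCm38.p6) were at hand for 8 of the 10 genes, all but Mcm4 and Gmnn, with 2 such windows for Mcm7. They are shown because E2F sites are a well known feature of such promoters. The words TTTCCCGC, TTTCGCGC, TTTGCCGC and TTTGGCGC, forms of the E2F site, were searched on both strands. At least 1 of them was in the window of 6 of the 8 genes (Mcm3, Mcm5, Mcm6, Mcm7, Cdc6 and Cdt1) and in 2.26% of all 32851 windows. In the stretches below, 30 bases each, written 5′ to 3′ on the strand of the gene, capitals mark these words, and each stretch is named by gene, location and distance of its first base from the start (the first transcribed base is 1).
Mcm3, chr1:20820275-20820304, minus strand, from 9: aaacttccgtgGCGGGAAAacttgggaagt
Mcm3, chr1:20820263-20820292, minus strand, from 21: cgggaaaacttgggaagtTTTGGCGCcaag
Mcm5, chr8:75109345-75109374, plus strand, from -164: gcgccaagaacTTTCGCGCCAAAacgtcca
Mcm6, chr1:128359797-128359826, minus strand, from -121: tggcgtatgctTTTGGCGCGAAAagtgcgt
Mcm6, chr1:128359734-128359763, minus strand, from -58: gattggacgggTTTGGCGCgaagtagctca
Mcm7, chr5:138172030-138172059, minus strand, from -176: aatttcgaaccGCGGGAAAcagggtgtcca
Mcm7, chr5:138171849-138171878, minus strand, from 6: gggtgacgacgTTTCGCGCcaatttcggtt
Cdc6, chr11:98908002-98908031, plus strand, from -149: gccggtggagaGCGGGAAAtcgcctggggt
Cdt1, chr8:122568035-122568064, plus strand, from 21: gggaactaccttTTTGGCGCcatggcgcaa

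Mcm3, Mcm6 and Mcm7 held the words at 2 separate places. In Mcm5 and in the farther stretch of Mcm6, 2 words on opposite strands shared 4 bases and formed a run of 12. The 170 bases before the start of Mcm5 and Mcm6, which overlap no annotated gene, show these words together with CCAAT, the box bound by NF-Y, again in capitals on either strand (ATTGG where it lies on the other).
Mcm5, chr8:75109339-75109508, plus strand: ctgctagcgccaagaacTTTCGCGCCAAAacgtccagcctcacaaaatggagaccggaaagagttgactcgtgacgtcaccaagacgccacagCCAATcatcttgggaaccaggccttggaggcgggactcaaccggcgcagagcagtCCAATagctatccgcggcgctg
Mcm6, chr1:128359706-128359875, minus strand: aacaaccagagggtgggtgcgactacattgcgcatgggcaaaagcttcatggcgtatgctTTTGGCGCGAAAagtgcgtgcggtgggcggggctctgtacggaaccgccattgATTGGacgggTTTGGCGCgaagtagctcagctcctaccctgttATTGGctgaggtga

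CCAAT was in the windows of 6 of the 8 genes, all but Cdc6 and Cdt1, against 37.4% of all windows. The GC box GGGCGG was in 6 of 8 (not in Mcm5 or Cdc6) against 35.7%. TTTGAA, the CHR element of genes expressed late in the cycle, was in the windows of Mcm2 and Cdc45, the 2 genes without an E2F word, against 17.9% of all. These matches describe the sequence only: no binding was measured here.

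All 10 genes were higher in vehicle-treated Ncf1-/- NSCs than in WT NSCs. The differences were 2.38-fold (Cdc6) to 4.61-fold (Gmnn), with a median log2 fold change of 1.53 against 0.02 over all genes tested. The edgeR quasi-likelihood test with Benjamini-Hochberg adjustment called 10 of 10 higher (28.9% of all genes tested were called higher), and in 10 of 10 the lowest Ncf1-/- library was above the highest WT library (26.1% of all genes tested). The libraries of bulk cultures do not show whether more cells held these transcripts or each cell held more of them. Values are normalised CPM (counts scaled to the library total with TMM factors) and are given in the order of library numbers.

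**Figure D1:**
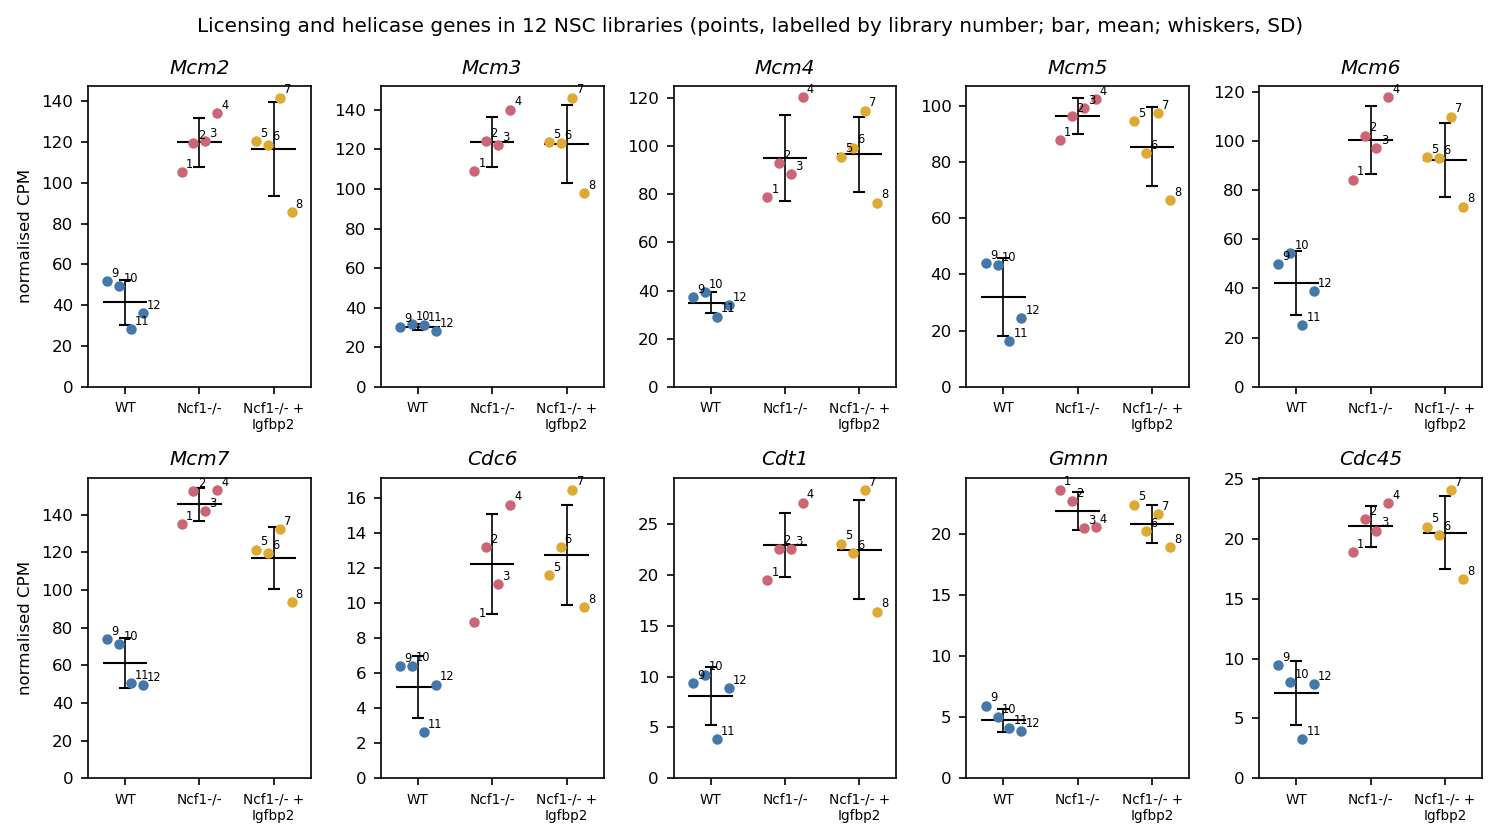
Normalised CPM (vertical axis, from 0) of the 10 genes, by group (WT, Ncf1-/- with vehicle, Ncf1-/- with Igfbp2); points are libraries with their numbers, bars are means and whiskers are SD (n = 4). WT values lie below both Ncf1-/- groups for every gene, WT library 11 is the lowest of its group for 7 of 10 genes, and library 8 is the lowest of the Igfbp2-treated group for 10 of 10.

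Among the subunits of the ring, Mcm3 showed the largest difference. Mcm3 was at 30.5, 31.7, 31.3 and 28.3 CPM in WT libraries and at 109, 124, 122 and 140.1 CPM in Ncf1-/- libraries. The WT values of Mcm3 lay within 1.12-fold of each other, the closest of the 10 genes, and the Ncf1-/- values were 4.07-fold higher (log2 fold change 2.02, SE 0.12, edgeR adjusted p = 6.09e-08). Mcm5 was the most variable subunit in WT NSCs, at 44.2, 43.3, 16.4 and 24.4 CPM, and rose to 87.8, 96.3, 99.3 and 102 CPM in Ncf1-/- NSCs (log2 fold change 1.59, SE 0.26, edgeR adjusted p = 0.000148). Thus even the highest WT library was at less than the lowest Ncf1-/- library, although WT libraries 11 and 12 were far below the other two.

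Mcm2, whose N-terminal tail also binds histones, was at 51.9, 49.3, 28.3 and 36.1 CPM in WT NSCs and 105, 119.5, 120.3 and 134 CPM in Ncf1-/- NSCs (log2 fold change 1.53, SE 0.19, edgeR adjusted p = 1.72e-05). Mcm4, with Mcm6 and Mcm7 part of the trimer that carries the helicase activity in vitro, was at 37.2, 39.3, 29.2 and 34.1 CPM and then at 79.0, 93.1, 88.4 and 120.5 CPM (log2 fold change 1.45, SE 0.15, edgeR adjusted p = 4.17e-06). Both genes had the same order within the Ncf1-/- group at its ends, with library 1 lowest and library 4 highest. Mcm6 was at 50.03, 54.3, 25.1 and 39.0 CPM in WT and 84.3, 102, 97.2 and 118 CPM in Ncf1-/- NSCs, a 2.39-fold difference (edgeR adjusted p = 0.000172). Mcm7, the most abundant subunit, was at 74.0, 71.1, 50.5 and 49.4 CPM and then at 135, 153, 142 and 153 CPM, a 2.38-fold difference (edgeR adjusted p = 1.01e-05). The log2 fold changes of Mcm6 (1.26, 95% interval 0.81 to 1.70) and Mcm7 (1.25, 0.94 to 1.56) did not overlap in interval with that of Mcm3 (1.77 to 2.28), but the difference between subunits was not tested.

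The loading factors Cdc6 and Cdt1 were less abundant and rose as well. Cdc6, the ATPase that recruits the MCM ring to the origin, was at 6.41, 6.42, 2.64 and 5.34 CPM in WT and 8.93, 13.2, 11.1 and 15.6 CPM in Ncf1-/- NSCs. The difference, 1.25 on the log2 scale with an SE of 0.27 (edgeR adjusted p = 0.0013), was the least certain of the 10. With an analysis of variance on TPM and Tukey's comparison, the test that the methods of the study describe, Cdc6 alone of the 10 did not pass (log2 fold change 1.40, adjusted p = 0.1035 by the Tukey comparison across all genes). Cdt1, which brings the ring together with Cdc6, was at 9.37, 10.2, 3.87 and 8.85 CPM in WT and 19.5, 22.6, 22.6 and 27.1 CPM in Ncf1-/- NSCs (log2 fold change 1.53, SE 0.25, edgeR adjusted p = 0.000186). In both genes WT library 11 was at less than the other WT libraries.

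Gmnn, the inhibitor of Cdt1, differed most of all. It was at 5.96, 5.02, 4.13 and 3.90 CPM in WT and 23.7, 22.7, 20.5 and 20.6 CPM in Ncf1-/- NSCs (log2 fold change 2.20, SE 0.13, 95% interval 1.93 to 2.48, edgeR adjusted p = 5.92e-08). The groups were tight and far apart, and library 1, the lowest Ncf1-/- library for the other 9 genes, was the highest for Gmnn. Cdc45, which travels with the MCM ring at the fork, was at 9.46, 8.04, 3.30 and 7.85 CPM in WT and 18.9, 21.7, 20.7 and 23.0 CPM in Ncf1-/- NSCs (log2 fold change 1.58, SE 0.24, edgeR adjusted p = 0.000101).

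**Figure D2:**
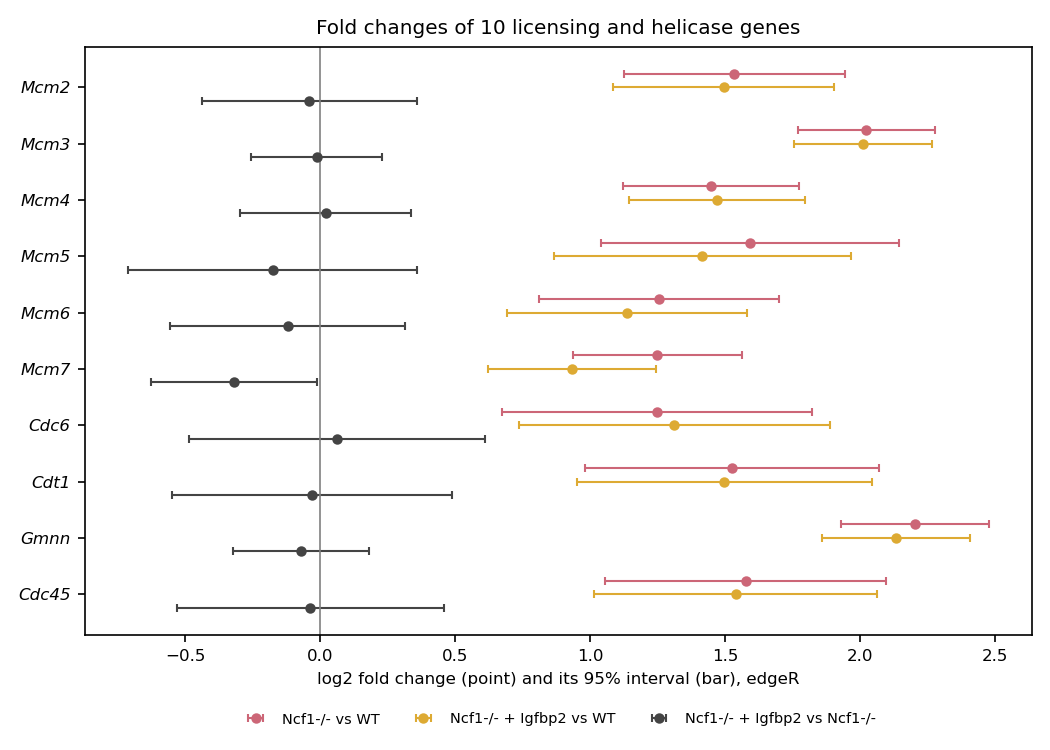
Log2 fold changes (horizontal axis) of the 10 genes with 95% intervals from edgeR for Ncf1-/- against WT, Igfbp2-treated Ncf1-/- against WT and Igfbp2-treated against vehicle-treated Ncf1-/- NSCs. The intervals of both comparisons with WT lie above 0 for all 10 genes, and those of the 2 treatments include 0 for 9 genes and lie just below it for Mcm7 (-0.63 to -0.01).

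The 10 calls were kept when any 1 of the 12 libraries was left out, with the lowest log2 fold change at 1.01 (Cdc6) and the highest at 2.33 (Gmnn). Without WT library 12 they lay between 1.12 (Mcm7) and 2.10 (Gmnn). Leaving out both WT libraries 11 and 12, a choice made after seeing the data, also gave 10 of 10 higher. The oligodendrocyte genes moved the other way (6 of 6 lower in Ncf1-/- NSCs, median log2 fold change -5.65), as did 3 of 4 astrocyte genes, and 4 of 5 neuronal genes were called lower. Of the 6 stem cell genes Nes (log2 fold change 1.92) and Fabp7 (0.96) were called higher, Sox2 (-0.97), Slc1a3 (-0.49) and Pax6 (-0.43) lower, and Vim was not called (1.13, edgeR adjusted p = 0.0636). Of 4 genes of oligodendrocyte precursors Sox10 (-3.39), Pdgfra (-2.01) and Cspg4 (-0.93) were called lower and Olig2 (0.29) higher. Of 4 mesenchymal genes Acta2 (2.55), Col1a1 (1.31) and Col1a2 (1.28) were called higher and Pdgfrb (-5.36) lower. The endothelial gene tested and the 2 ependymal genes tested were not called. Of 5 microglia genes 1 had enough counts to be tested, and their sum was at most 1.45 CPM in any library. The part of this difference in cell makeup in the licensing genes was not tested. WT library 11, the lowest for 7 of the 10 genes, had the least oligodendrocyte RNA of the WT libraries and the highest Gfap (7590.2 CPM) and Aldh1l1 (1539 CPM), but the lowest Aqp4 (559 CPM) and S100b (29.1 CPM) of them, all 4 being astrocyte genes.

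The proportions of the loaders, their inhibitor and the helicase were compared with 6 log2 ratios of 2 genes within a library, each over 3 comparisons, by exact permutation of 4 against 4 libraries (two-sided, smallest possible p = 0.0286) with adjustment over the 18 tests. An adjusted p under 0.05 would have needed 11 of the 18 tests at the smallest possible p, and 4 were at it, so that the design could hardly give a call and the lack of one (lowest adjusted p = 0.129 by exact permutation) does not show that proportions were kept. The log2 ratio of Cdt1 to Gmnn was 0.65, 1.02, -0.09 and 1.18 in WT and -0.28, -0.01, 0.14 and 0.40 in Ncf1-/- NSCs, a difference of -0.63 (exact p = 0.114, adjusted p = 0.257). The groups overlapped because WT library 11 lay among the Ncf1-/- libraries.

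The ratio of Cdc6 to Gmnn differed by -0.94 in the same direction (exact p = 0.0571, adjusted p = 0.206). For 2 ratios the groups did not overlap. Cdc6 to Cdt1 was -0.55, -0.67, -0.55 and -0.73 in WT and -1.12, -0.78, -1.03 and -0.80 in Ncf1-/- NSCs, a difference of -0.31 (exact p = 0.0286, adjusted p = 0.129), so that Cdc6 was lower relative to Cdt1 in 4 of 4 Ncf1-/- libraries. Gmnn to the proliferation marker Mki67 was -5.00, -5.37, -4.78 and -4.78 in WT and -3.66, -4.08, -3.90 and -4.65 in Ncf1-/- NSCs, a difference of 0.91 with the same p-values. Hence Gmnn was the higher relative to Mki67 in every Ncf1-/- library, but neither ratio passed the adjustment. Cdc45 to Mcm2 differed by 0.09 (exact p = 0.743) and Mcm5 to Mki67 by 0.39 (exact p = 0.143).

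**Figure D3:**
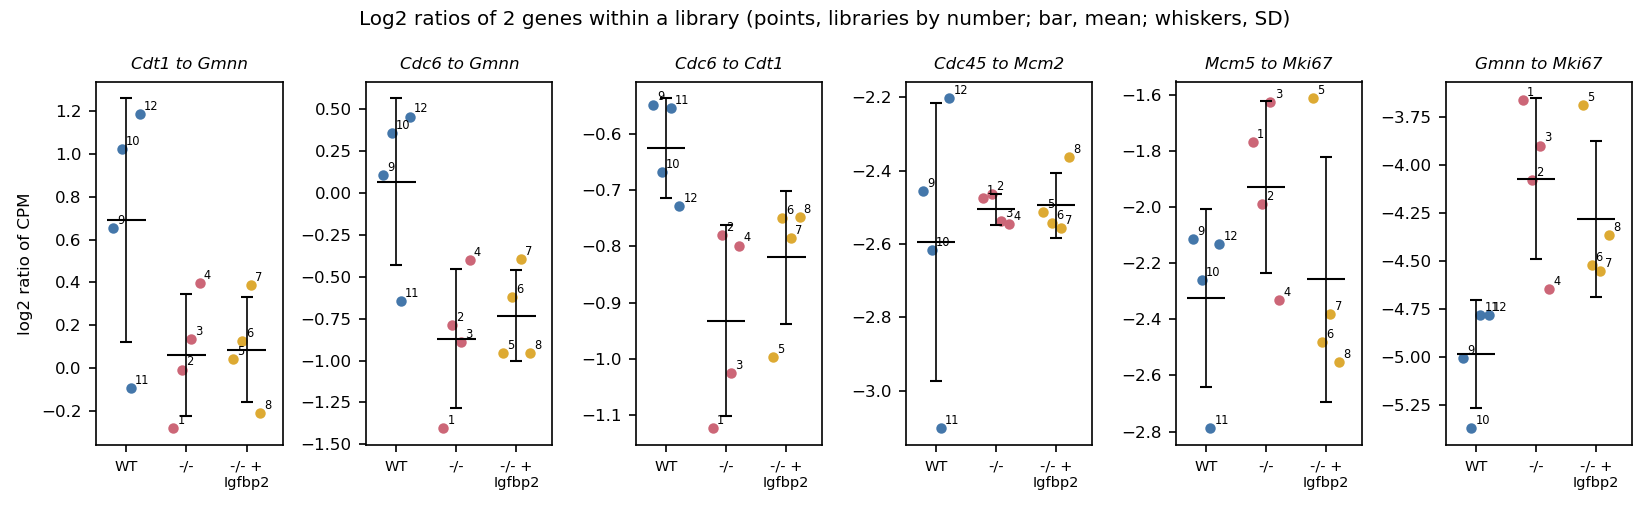
Log2 ratios of normalised CPM of 2 genes (vertical axes, each with its own range) within each library, by group (WT, Ncf1-/- with vehicle, Ncf1-/- with Igfbp2); points are libraries with their numbers, bars are means and whiskers are SD (n = 4). WT lies apart from both Ncf1-/- groups for Cdc6 to Cdt1 and Gmnn to Mki67 and overlaps them for the other 4.

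Treatment of Ncf1-/- NSCs with Igfbp2 left 10 of 10 genes without a call. Log2 fold changes against vehicle-treated Ncf1-/- NSCs, with which the comparison above shares its vehicle libraries, lay between -0.32 (Mcm7) and 0.06 (Cdc6), with a median of -0.04 against 0.04 over all genes. The edgeR test called 0 of 10 in either direction (14.2% of all genes tested were called higher and 10.7% lower). With unadjusted p-values under 0.05, 1 gene, Mcm7, was lower, and DESeq2 called none. Without WT library 12 the values lay between -0.36 (Mcm7) and 0.03 (Cdc6), with Mcm4 at -0.015, and no gene was called. For Mcm3 the 95% interval of the log2 fold change was -0.26 to 0.23, for Gmnn -0.32 to 0.18, and for the least precise, Cdc6, -0.49 to 0.61. These intervals hold for the main fit only, in which the spread of the WT libraries enters although the comparison holds none of them. Fitted within each group, the coefficient of variation between libraries was 0.25 in WT, 0.116 with vehicle and 0.121 with Igfbp2. With the 2 groups alone 5709 of all genes were called, against 3923 in the main fit. Thus the lack of calls belongs to the main fit. Over all alternatives, some of which changed the fit, the unit and the scaling together, Mcm3 went down to -0.50 and Gmnn to -0.54, beyond the intervals given. With only the TMM factors left out, Gmnn was at -0.34. Markers of other cells moved in this comparison too, and their part was not tested. Called higher were 3 of 4 mesenchymal genes (Col1a1 at 1.05, Col1a2 at 1.58 and Pdgfrb at 2.02), Cspg4 (0.95), 1 of 4 genes of oligodendrocyte precursors, and Foxj1 (1.03), 1 of 2 ependymal genes tested, and called lower were 2 of 5 neuronal genes, Dcx (-0.83) and Tubb3 (-0.61). Of the oligodendrocyte, astrocyte and stem cell genes none was called. The summed level of the 4 mesenchymal genes was 9.58 to 24.1 CPM in WT, 8.10 to 10.4 CPM in vehicle-treated and 19.7 to 23.3 CPM in Igfbp2-treated libraries.

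The Igfbp2-treated libraries overlapped the vehicle-treated ones for 9 of 10 genes. Mcm2 was at 120.2, 119, 142 and 85.7 CPM in libraries 5 to 8, Mcm3 at 124, 123, 146 and 98.0 CPM, and Gmnn at 22.4, 20.3, 21.7 and 19.0 CPM. Cdt1 was at 23.1, 22.1, 28.4 and 16.4 CPM, and Cdc6 at 11.6, 13.2, 16.5 and 9.77 CPM. In these 5 genes library 8 was the lowest, and library 7 was the highest in all but Gmnn. Mcm7 alone did not overlap between the treatments, at 121, 119.8, 132 and 93.7 CPM with Igfbp2 against 135 to 153 CPM with vehicle (log2 fold change -0.32, SE 0.14, edgeR adjusted p = 0.117). Among all genes tested, 14.7% were lower without overlap in this comparison, so that 1 of 10 is not more than the background.

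The call for Mcm7 depended on the settings. It was called lower, at -0.37 and edgeR adjusted p = 0.0122, when the WT libraries were left out of the fit, and at -0.38 and edgeR adjusted p = 0.0208 with the preparation pair as a block. It was called lower as well with limma on log2(TPM + 1) (-0.90, limma adjusted p = 0.00318), where the median of all genes was itself at -0.30, and with TPM rescaled without 5 short structural RNAs (-0.60, limma adjusted p = 0.0175). The scaling moved all genes in this comparison. These 5 RNAs took up 62.1 to 72.3% of all TPM in Igfbp2-treated libraries and 56.0 to 60.3% in vehicle-treated ones. Without TMM factors, 648 genes were called higher and 5258 lower, against 2238 and 1685 with them. Mcm7 was called lower without TMM factors too (-0.59, edgeR adjusted p = 0.0093). The same held with limma on log2(TPM + 0.1) (-0.92, limma adjusted p = 0.00309) and without WT libraries 11 and 12 (-0.35, edgeR adjusted p = 0.011). Relative to the median of all genes, Mcm7 was at -0.36 with TMM factors and -0.35 without them. Gmnn was called lower without TMM factors (-0.34, edgeR adjusted p = 0.037), but relative to the median of all genes it was at -0.11 in both. It was also called lower with limma on log2(TPM + 1) (limma adjusted p = 0.0147, -0.21 relative to the median) and on log2(TPM + 0.1) (limma adjusted p = 0.016, -0.12 relative to the median). The analysis of variance on TPM called both Mcm7 (-0.90, adjusted p = 0.0342 by the Tukey comparison across all genes) and Gmnn (-0.52, adjusted p = 0.0454) lower. Mcm5 was called lower with limma on log2(TPM + 1) alone (-0.63, limma adjusted p = 0.0458).

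Igfbp2-treated Ncf1-/- NSCs, compared with WT NSCs, again had all 10 genes higher, by 1.91-fold (Mcm7) to 4.39-fold (Gmnn). The comparison shares its libraries with both comparisons above. The edgeR test called 10 of 10 (31.6% of all genes tested were called higher), and 10 of 10 did not overlap (27.8% of all genes tested). Log2 fold changes against WT, with treatment and then with vehicle, were 2.01 and 2.02 for Mcm3, 1.47 and 1.45 for Mcm4, 1.31 and 1.25 for Cdc6, 2.13 and 2.20 for Gmnn, and 0.93 and 1.25 for Mcm7. The 10 calls were kept whichever library was left out (0.77 for Mcm7 to 1.99 for Gmnn without WT library 12), and without WT libraries 11 and 12. The analysis of variance on TPM called 1 of the 10, Gmnn (adjusted p = 0.00243 by the Tukey comparison across all genes), and in that test the median log2 fold change of all genes was -0.41. Limma did not call Mcm7 on log2(TPM + 1) (0.30, limma adjusted p = 0.176) or log2(TPM + 0.1) (0.31, limma adjusted p = 0.173).

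Levels of different genes can be compared only per length, for which TPM was used. In WT NSCs Mcm7 stood first with 22.1 ± 2.78 TPM (SD, n = 4), followed by Mcm6 with 10.7 ± 2.49, Mcm2 with 9.16 ± 1.60, Mcm3 with 7.92 ± 1.22, Mcm4 with 7.33 ± 0.502 and Mcm5 with 6.90 ± 2.42 TPM. Gmnn followed with 4.34 ± 0.398 TPM, then Cdc45 with 2.88 ± 0.832, Cdt1 with 2.83 ± 0.875 and Cdc6 with 1.21 ± 0.326 TPM. Mcm7 stood apart from the next gene, whereas the means of Mcm6 to Mcm5 were within their SDs of each neighbour, as were Cdc45 and Cdt1. These SDs are between libraries. Within each WT library Mcm6 was above Mcm2, whereas the neighbours from Mcm2 to Mcm5, and Cdc45 and Cdt1, changed order between libraries. In vehicle-treated Ncf1-/- NSCs Mcm7 (52.4 ± 8.42 TPM) was again first and Cdc6 (3.22 ± 1.11 TPM) last, but Mcm3 (33.0 ± 6.66 TPM) was now second and Gmnn (20.8 ± 1.49 TPM) was level with Mcm4 (21.1 ± 6.19 TPM) and Mcm5 (22.2 ± 3.50 TPM). With Igfbp2 the first was Mcm7 with 28.1 ± 7.72 TPM, next to Mcm3 with 23.99 ± 8.24 TPM. These means differed by less than the SD between libraries, but Mcm7 was above Mcm3 within each library. In the order of library numbers Mcm7 was at 25.4, 31.2, 36.9 and 18.9 TPM and Mcm3 at 20.1, 25.9, 34.6 and 15.45 TPM.

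The 6 subunits take part in the ring in equal numbers, and their shares of the summed TPM of Mcm2 to Mcm7 were therefore set side by side, as a description without a test. Mcm7 held 34.5 ± 2.83% in WT, 28.6 ± 1.10% in vehicle-treated and 23.6 ± 1.03% in Igfbp2-treated Ncf1-/- NSCs (SD, n = 4), and no 2 of these groups overlapped. Mcm3 went the other way, from 12.6 ± 3.13% in WT to 17.9 ± 0.168% and 19.8 ± 0.655%, and WT library 11, with 16.9%, came close to the Ncf1-/- libraries. The share of Mcm2 was 14.2% in WT, 15.3% with vehicle and 16.5% with Igfbp2, and WT and vehicle overlapped. The treatments were apart by little, with 15.54% in the highest vehicle library and 15.56% in the lowest Igfbp2 library. The shares add up to the whole, so that a lower share of Mcm7 raises the others. The levels of Mcm2 and Mcm3 themselves did not rise with Igfbp2 against vehicle (edgeR log2 fold changes -0.04 and -0.01). Mcm6 was at 16.6, 14.7 and 15.2% in WT, vehicle-treated and Igfbp2-treated NSCs. The shares of Mcm4 were 11.5, 11.3 and 12.9% and those of Mcm5 were 10.6, 12.2 and 11.98% in the same order, and for both the ranges of WT and vehicle-treated Ncf1-/- libraries overlapped. In vehicle-treated Ncf1-/- NSCs the shares varied little between libraries, with an SD of at most 1.10 percentage points for any subunit.

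The effective length of Mcm7 also differed between the groups. It enters the share of Mcm7 through TPM, so that at unchanged counts a longer length gives a lower share. Share and length are therefore not separate observations. TPM divides counts by the effective length, which RSEM takes as the mean over the transcripts of a gene weighted by their estimated abundance. For Mcm7 it was 1997, 1991, 1879 and 2034 bases in WT, 2116, 2113, 2051 and 2039.7 bases in vehicle-treated and 2215, 2312, 2321 and 2236 bases in Igfbp2-treated Ncf1-/- libraries. The 3 groups did not overlap, and the mean length assigned to Mcm7 rose in the order WT, vehicle and Igfbp2. For Mcm2, Mcm4, Mcm5 and Cdt1 the effective length varied by at most 28.1 bases across all 12 libraries. It varied more for Cdc6 (2792 to 3381 bases), Mcm3 (2635 to 2871 bases) and Cdc45 (1629 to 1853 bases), with groups that overlapped. The part of transcript usage in the share of Mcm7 was not tested.

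**Figure D4:**
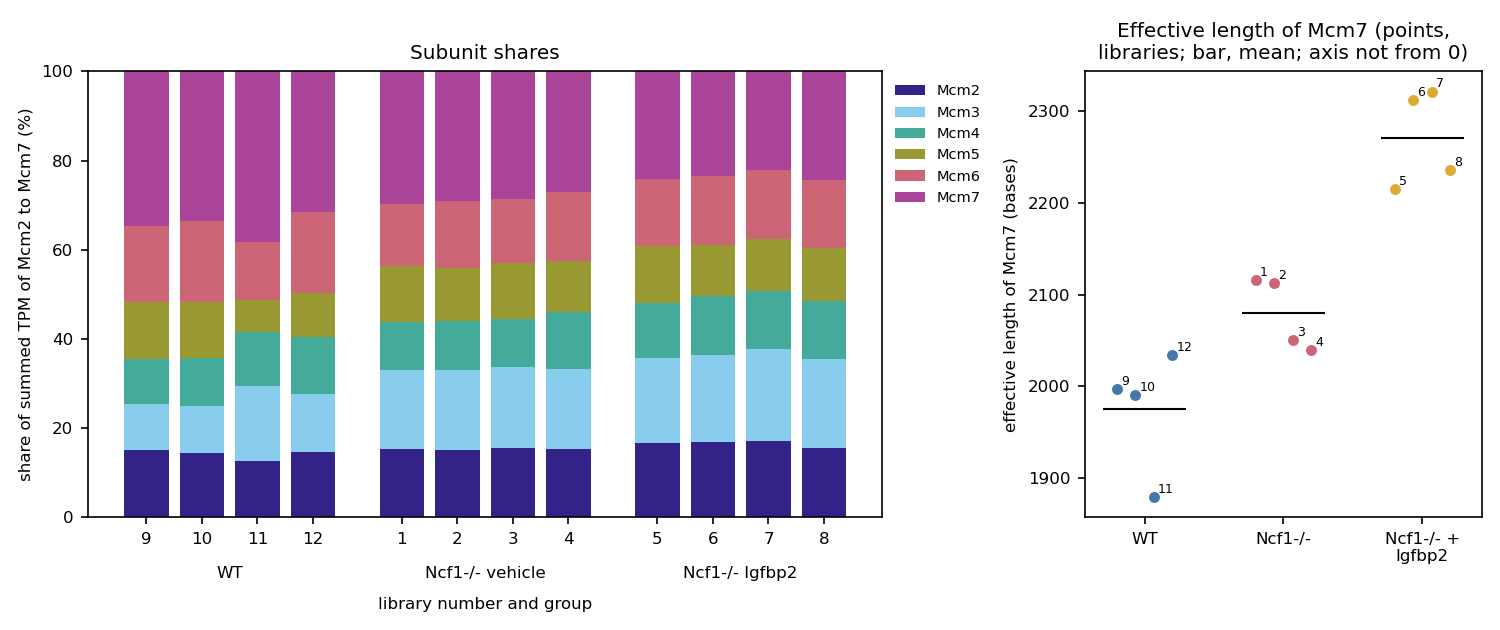
Left, share of each subunit in the summed TPM of Mcm2 to Mcm7 (vertical axis, %) in the 12 libraries, by group and library number. Right, effective length of Mcm7 in bases (vertical axis, not from 0) with points for libraries and bars for means: the share of Mcm7 falls from 31.5 to 38.3% in WT to 22.1 to 24.4% with Igfbp2 while its effective length goes from 1879 to 2034 bases to 2215 to 2321 bases.

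Within the Ncf1-/- groups most of the 10 genes were lowest and highest in the same libraries. Library 1 was the lowest vehicle-treated library for 9 of 10 genes and library 4 the highest for 9 of 10. Library 8 was the lowest Igfbp2-treated library for 10 of 10 and library 7 the highest for 9 of 10. With group means removed, Pearson's r of log2 CPM across the 12 libraries ranged from 0.19 (Mcm3 with Gmnn) to 0.96 (Cdt1 with Mcm6) over the 45 pairs of genes, with a median of 0.81, and had a median of 0.52 over the 9 pairs with Gmnn (as a description, since the pairs share libraries and depth). Single libraries set some of these values. Without WT library 11, Mcm3 with Cdt1 went from 0.46 to 0.99 and Gmnn with Cdt1 from 0.42 to 0.21, and the latter was 0.64 without WT library 12. Without library 8, Mcm3 with Cdt1 was 0.27. The median over the 45 pairs stayed between 0.78 and 0.86 whichever library was left out. Cdc6, Cdt1, Cdc45 and Mcm5 varied most among WT libraries, 2.43- to 2.87-fold between the highest and the lowest, against 1.53-fold for Gmnn, 1.35-fold for Mcm4 and 1.12-fold for Mcm3.

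The genes most like the mean of Mcm2 to Mcm7 in this measure were Fen1 (r = 0.99), the flap endonuclease of Okazaki fragment processing, Fem1a (0.99), Nup93 (0.98), a nuclear pore protein, Fam84a (0.98) and Chaf1a (0.98), the large subunit of the chromatin assembly factor CAF-1. Without the 2 libraries farthest from the median (WT library 11 and library 8) their r was 0.95 to 0.97 over the 10 left. Those most like Cdt1 were Dpf1 (0.98), Olfml2b (0.97), Ung (0.97), a uracil-DNA glycosylase, Mcm6 (0.96) and Parp1 (0.96), with r of 0.80 to 0.96 without the same 2 libraries. For Gmnn they were Taf11 (0.95), Arhgef39 (0.94), Dnph1 (0.93), Dtymk (0.93), the thymidylate kinase, and Cenpl (0.93), a centromere protein, with r of 0.83 to 0.89 without WT libraries 9 and 12. None of the 3 sets shared a gene with another, but Mcm2 to Mcm7 were not ranked against their own mean, so that Mcm6 could not be shared. Such short lists do not show that the profiles differ. Gmnn stood at rank 1927 of 15700 in likeness to the MCM mean, against rank 104 for Cdc6, 129 for Cdt1 and 391 for Cdc45.

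A wider list of 50 replication genes, of which 48 were tested, showed which steps moved with the 10. Between vehicle-treated Ncf1-/- and WT NSCs 38 of 48 were called higher and 0 lower (median log2 fold change 1.18), against 28.9% of all genes called higher and 28.2% called lower. At an unadjusted p under 0.05 none was lower, and DESeq2 called 1 lower, Cul4a (edgeR log2 fold change -0.14, edgeR adjusted p = 0.0921). The factors that activate the helicase were higher throughout, 11 of 11, from Gins4 (0.69) to Mcm10 (1.85, SE 0.26, edgeR adjusted p = 5.75e-05), and so were both subunits of the kinase that starts it, Cdc7 (1.47) and Dbf4 (1.76). Polymerase and primase genes were called higher in 11 of 12 and the fork protection genes Timeless, Tipin and Clspn in 3 of 3.

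The origin recognition complex was split. Orc1, the subunit whose level follows the cell cycle, was at 2.05, 1.57, 1.12 and 1.11 CPM in WT and 5.40, 6.58, 5.56 and 7.24 CPM in Ncf1-/- NSCs (log2 fold change 2.09, SE 0.22, edgeR adjusted p = 4.08e-06), whereas Orc2, Orc5 and Orc6 rose by 0.39 to 0.67 on the log2 scale. Orc3 (0.05, edgeR adjusted p = 0.53) and Orc4 (0.07, edgeR adjusted p = 0.567) were not called. Of the 8 genes that act on Cdt1 and geminin 5 were called higher: Dtl, which targets Cdt1 for destruction, at 1.98, Cdc20 at 1.94, Fbxo5, the inhibitor of the APC/C ligase that destroys geminin, at 1.79, Skp2 at 0.79 and Fzr1 at 0.29. The ligase subunits Cul4a and Ddb1 and the deubiquitinase Usp37 were not called.

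The relatives of the MCM genes were not all alike. Mcm8, which acts in recombination repair, was called higher (1.47, edgeR adjusted p = 1.17e-05), and its partner Mcm9 was not (0.13, edgeR adjusted p = 0.318). Mcmbp, an MCM binding protein, and the histone acetyltransferase Kat7, which acts in licensing, were at -0.10 each and not called. Of the FACT complex Ssrp1 was called (0.55) and Supt16 was not (0.26, edgeR adjusted p = 0.0763). The geminin relatives Mcidas and Gmnc were at or near 0 (at most 0.132 CPM in any library) and were not tested. Of the proliferation markers Pcna rose by 1.46, Top2a by 1.94 and Mki67 by 1.28 on the log2 scale, within the range of the 10 genes.

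**Figure D5:**
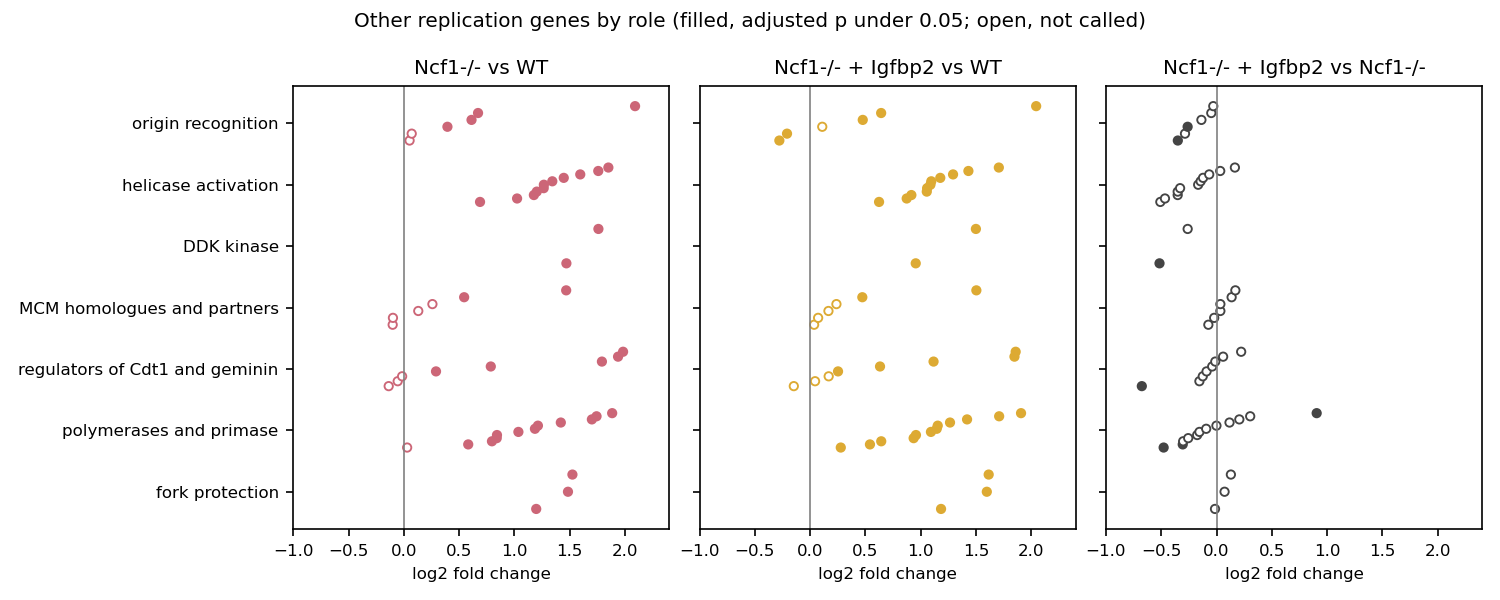
Log2 fold changes (horizontal axis) of the 48 tested replication genes of the wider list by role, for the 3 comparisons; each point is a gene, filled where edgeR called it at an adjusted p under 0.05. Helicase activation and fork protection lie above 0 in both comparisons with WT, whereas the origin recognition genes spread from 0.05 (Orc3) to 2.09 (Orc1) with vehicle and from -0.28 (Orc4) to 2.04 (Orc1) with Igfbp2. With Igfbp2 against vehicle 41 of 48 points are open.

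With Igfbp2, 6 of the 48 were called lower than with vehicle and 1 higher, with a median of -0.09, against 10.7% of all genes called lower and 14.2% called higher. The share called lower was thus near that of all genes. Fbxo5 fell most, from 18.3, 20.5, 20.5 and 24.4 CPM to 12.4, 12.02, 15.3 and 12.6 CPM (log2 fold change -0.68, SE 0.21, edgeR adjusted p = 0.0308), without overlap. Of the 48, 12 were lower without overlap, against 14.7% of all genes tested. The others called lower were Cdc7 (-0.52), Prim1 (-0.48), a primase subunit, Orc4 (-0.35), Pole3 (-0.31) and Orc3 (-0.26), with edgeR adjusted p from 0.0156 to 0.0283. Pold4, the smallest subunit of polymerase delta, was called higher (0.91, edgeR adjusted p = 0.014), with Igfbp2 values of 13.9 to 20.2 CPM against 7.42 to 11.7 CPM. The count of lower calls depended on the scaling and the fit, from 0 at an adjusted p under 0.01 to 25 without TMM factors and 32 with limma on log2(TPM + 1), and leaving out Ncf1-/- library 2 left 1. Against WT, the treated NSCs had 38 of 48 higher and 2 lower, Orc3 (-0.21) and Orc4 (-0.28), against 31.6% of all genes called higher and 30.8% called lower. These counts depended on the fit as well. With limma on log2(TPM + 1) and log2(TPM + 0.1) 20 and 22 were called higher, and in the study's test 5. The lower calls were 5 with limma and 0 at an adjusted p under 0.01 or without WT library 9.

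Some of the 10 genes lie close to other genes, and whether counting used the strand is not given in the sources used here. Mcm4 (chr16:15623897-15637400, GRCm38, GENCODE, minus strand) starts 466 bases from Prkdc, the DNA-PK catalytic subunit, on the opposite strand. Prkdc was below its WT level in Ncf1-/- NSCs given vehicle (log2 fold change -0.52, SE 0.14, edgeR adjusted p = 0.00492), the opposite of Mcm4. Cdc45 (chr16:18780447-18811987, minus strand) starts 208 bases from Ufd1 and overlaps it, and Ufd1 was not called between the genotypes (-0.10, edgeR adjusted p = 0.287) but fell with Igfbp2 (-0.31, edgeR adjusted p = 0.0113), where Cdc45 did not. Mcm7 (chr5:138164583-138172422, minus strand) starts 420 bases from Ap4m1 and overlaps it and Cops6. Ap4m1 was higher in Ncf1-/- NSCs by 0.55 and Cops6 by 0.26 on the log2 scale (edgeR adjusted p = 0.000341 and 0.00998), both less than Mcm7, and reads in the shared stretches cannot be told apart.

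Mir25, Mir93 and Mir106b, miRNA genes within Mcm7, were listed at 0 counts in all 12 libraries. They lie on the same strand as Mcm7, and reads of the 2 cannot be told apart. Their 0 counts therefore do not show that they were not transcribed. Cdt1 (chr8:122568015-122573554, plus strand) overlaps Gm20388, a model that starts 2657174 bases away on the same strand and had counts in 3 libraries only (4.57, 9.13 and 10.3 CPM in libraries 1, 7 and 10). The share of those counts that came from Cdt1 cannot be told apart.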

How the data were processed

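RNA-seq of 12 NSC libraries was aligned with Bowtie2 and quantified with RSEM on GRCm38 per the labels (versions and annotation not given in the sources used here). The authors deposited, per gene and library, expected counts, TPM and effective length. A deposited merged table holds a score equal to TPM times the number of transcripts of the gene and was used only to match symbols to gene identifiers. It held 0 columns of other samples.

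Expected counts were rounded, filtered with filterByExpr, scaled with TMM factors and fitted with edgeR 4.0.16 (R 4.3.3) by the quasi-likelihood test over all 12 libraries and 15706 genes, with Benjamini-Hochberg adjustment and a threshold of 0.05. SEs were taken from the log2 fold change and the F statistic. The script was tested on simulated data. Alternatives were DESeq2 1.42.0, limma 3.58.1 on log2(TPM + 1) or log2(TPM + 0.1), the study's analysis of variance on TPM, library totals, other filters and thresholds, a preparation block and each library left out. The block took libraries 1 and 5, 2 and 6, 3 and 7, and 4 and 8 as pairs, an order that the library titles do not state. Ratios were tested by exact permutation.

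The members, the lists and the genes named were chosen with earlier results of these data known. Named were all 10 members, genes of the wider list (the largest rise and fall per role and exceptions to the direction of the role), the proliferation markers, neighbours starting within 1000 bases on the opposite strand and the 5 genes closest in profile. Cops6, Gm20388, the miRNA genes and further genes of the wider list were named after their values were seen.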

Additional observations from a re-analysis of the deposited data

Results flagged for a closer look

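The log2 ratio of Cdc6 to Cdt1 in Igfbp2-treated Ncf1-/- NSCs was -0.997, -0.749, -0.786 and -0.747 in libraries 5 to 8. Library 5 was lowest, and its gap to the nearest library was 0.845 of the range of the group, above Dixon's critical value for 4 samples. It was the 1 such value among 48 groups of 4 examined, and chance alone gives about 5% of groups.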

How the results depend on the processing

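With WT as the reference, the direction of all 10 genes was kept under every alternative run. The number called higher in Ncf1-/- NSCs was 10 in each, except 9 in the study's own test, and in Igfbp2-treated NSCs it was 9 with limma at either pseudocount (without Mcm7) and 1 in the study's test.

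Between the treatments no direction is fixed for most of the genes. Mcm4 (0.02) was at -0.25 with library totals, -0.025 with the 2 groups alone, -0.43 and -0.45 with limma on log2(TPM + 1) and log2(TPM + 0.1), -0.13 with TPM rescaled without the short RNAs, -0.44 in the study's test, -0.023 with the replicate block and -0.0135 without WT libraries 11 and 12, an alternative chosen after seeing the data. Cdc6 (0.06) was at -0.21, -0.31, -0.42, -0.10 and -0.42 with library totals, limma at either pseudocount, rescaled TPM and the study's test. With 1 library left out, Mcm4 ranged from -0.12 to 0.17, Cdc6 from -0.13 to 0.22, Mcm2 from -0.193 to 0.0528, Mcm3 from -0.152 to 0.0689, Cdt1 from -0.207 to 0.0788 and Cdc45 from -0.169 to 0.0248. The log2 ratios ranged from -0.0885 to 0.137 for Cdt1 to Gmnn and -0.0401 to 0.295 for Cdc6 to Gmnn between treatments, for Cdc45 to Mcm2 from -0.0809 to 0.219 (Ncf1-/- against WT), -0.0317 to 0.0324 (treatments) and -0.0692 to 0.231 (Igfbp2 against WT), and for Mcm5 to Mki67 from -0.15 to 0.17 (Igfbp2 against WT). The cause was not tested.

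Members called lower with Igfbp2 (0) were 2 with library totals, 1 with the 2 groups alone, 3 and 2 with limma, 1 with rescaled TPM, 2 in the study's test, 1 with the replicate block and 1 without WT libraries 11 and 12. Of the wider list, 1 was lower in Ncf1-/- than in WT NSCs with DESeq2 and 1 with rescaled TPM, and 0 to 4 with a library left out (4 without Ncf1-/- library 4: Cul4a, Usp37, Kat7 and Mcmbp). With Igfbp2 against vehicle the 1 higher call was 0 at an adjusted p under 0.01, 2 with the 2 groups alone, 0 with limma at either pseudocount, 0 in the study's test, 2 without WT libraries 11 and 12 and 1 to 3 with a library left out (3 without Ncf1-/- library 4, 2 without WT library 11). The 6 lower calls were 0 at an adjusted p under 0.01, 25 with library totals, 3 without a filter, 14 with the 2 groups alone, 32 and 30 with limma, 12 with rescaled TPM, 11 in the study's test, 14 with the replicate block, 14 without WT libraries 11 and 12 and 1 to 9 with a library left out (1 without Ncf1-/- library 2, 2 without Ncf1-/- library 4 or Igfbp2 library 8, 3 without Ncf1-/- library 1 or Igfbp2 library 5 or 6). For Igfbp2 against WT the 38 higher calls were 20 and 22 with limma and 5 in the study's test, and the 2 lower calls were 0 at an adjusted p under 0.01, 0 without a filter, 5 and 5 with limma, 5 with rescaled TPM and 0 to 3 with a library left out (0 without WT library 9, 1 without Igfbp2 library 8).

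The pairing by preparation was taken as libraries 1 and 5, 2 and 6, 3 and 7, and 4 and 8, an order that the library titles do not state. It was not borne out: deviations of these pairs correlated at -0.11 to 0.10 and those of the other 12 pairs at -0.36 to 0.38. The correlations test this order only, but the Y-linked genes differ whichever vehicle and Igfbp2 libraries are paired. Cdc6, with the fewest counts of the 10 genes in the Ncf1-/- libraries, also had the widest interval.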
